A study of Mus musculus with 44 samples.

Results

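Transcripts of 7 genes of the interleukin-6 (IL-6) cytokine family and its signalling chain were followed in macrophages (MFs) of injured mouse muscle. The genes were the cytokines Il6, Lif and Osm, the receptors Il6ra and Il6st, the transcription factor Stat3 and its inhibitor Socs3. They were listed by symbol, by a rule that used no values, though with earlier results of these data known. Each needed a probe set annotated to that one gene, which all 7 of 7 had, among 19938 genes measured. Socs3 had a second probe set, and the one with the higher mean over all arrays was used. The data were 44 one-colour Affymetrix mouse gene arrays, 1 per sample of total RNA, with values on a log2 scale, so that a difference of 1 is a doubling. The tibialis anterior muscle was injured with cardiotoxin, a venom toxin that kills muscle fibres. CD45+ leukocytes were bead-selected from the regenerating muscle and sorted into F4/80low Ly6C+ MFs, the inflammatory subset that enters first, and F4/80high Ly6C- MFs, the subset linked to repair. Knockout (KO) mice carried a floxed PPARg gene and the LysM Cre transgene (PPARg fl/fl, LysM Cre+, C57B6/J), so that deletion depends on the myeloid lysozyme promoter, and wild-type (WT) mice were C57B6/J. Untreated KO mice gave Ly6C+ MFs at day 1 (n = 4), day 2 (n = 5) or day 4 (n = 4) of regeneration, and Ly6C- MFs at day 2 (n = 5). WT mice treated with rosiglitazone, a synthetic PPARg agonist, gave Ly6C- (n = 3) and Ly6C+ (n = 3) MFs at day 2. Untreated WT mice gave Ly6C+ MFs at day 1 (n = 4), day 2 (n = 6) or day 4 (n = 4), and Ly6C- MFs at day 2 (n = 6). Replicates are labelled biological, and the sources used here give no dose of rosiglitazone, no age or sex of the mice and nothing on pooling of animals.

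IL-6, leukemia inhibitory factor (LIF, from Lif) and oncostatin M (from Osm) are secreted cytokines that share one signalling chain, gp130, the product of Il6st. IL-6 first binds its own receptor chain, the product of Il6ra, and then a pair of gp130 molecules, whereas LIF and oncostatin M bring gp130 together with the LIF receptor or the oncostatin M receptor. Bound gp130 activates Janus kinases, which phosphorylate STAT3, and STAT3 switches on Socs3, whose product binds gp130 and shuts the signal off. In injured muscle these cytokines are known products of inflammatory leukocytes and act on both leukocytes and muscle precursor cells.

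The stretches just before a RefSeq start site of Il6, Lif and Socs3 are shown because these genes had 3 of the 4 widest ranges over the groups. They are the 250 bases upstream of that start in build GRCm38.p6, read 5′ to 3′ on the gene's strand. The capitals mark matches to 1 of 5 motifs searched on both strands. The Socs3 stretch lies inside the full span of the gene (117966079 to 117970336), so the start used for it is not the outermost one.
Il6, chr5:30012864-30013113 (plus strand): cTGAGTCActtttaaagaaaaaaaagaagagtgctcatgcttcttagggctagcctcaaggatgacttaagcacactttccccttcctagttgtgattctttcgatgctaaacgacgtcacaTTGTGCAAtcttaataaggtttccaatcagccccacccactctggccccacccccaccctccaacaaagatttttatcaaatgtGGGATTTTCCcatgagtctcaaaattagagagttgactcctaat
Lif, chr11:4257318-4257567 (plus strand): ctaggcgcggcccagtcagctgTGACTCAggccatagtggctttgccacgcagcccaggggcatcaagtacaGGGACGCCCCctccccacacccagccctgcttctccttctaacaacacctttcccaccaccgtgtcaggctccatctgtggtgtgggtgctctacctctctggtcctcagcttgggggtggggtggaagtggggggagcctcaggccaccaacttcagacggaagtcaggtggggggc
Socs3, chr11:117969367-117969616 (minus strand): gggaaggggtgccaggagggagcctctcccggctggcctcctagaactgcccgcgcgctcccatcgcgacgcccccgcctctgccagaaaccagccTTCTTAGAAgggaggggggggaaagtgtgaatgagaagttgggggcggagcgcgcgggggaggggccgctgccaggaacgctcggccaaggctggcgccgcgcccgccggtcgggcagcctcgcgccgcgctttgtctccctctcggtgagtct
The motifs were AP-1 (TGANTCA), the NF-kB site, C/EBP (TTGNNCAA), STAT (TTCNNNGAA) and the cyclic AMP response element (TGACGTCA), and no matches overlapped in these sequences. The Il6 stretch held the AP-1, C/EBP and NF-kB letters, with first bases at -249, -128 and -44 from the start. Among 32851 RefSeq upstream stretches of the same length, these letters occurred in 6.75%, 5.65% and 7.25%, in the same order. The Lif stretch held AP-1 letters at -228 and an NF-kB match at -178. The Socs3 stretch held STAT letters at -154 from the inner start used, and 7.02% of all stretches also held such letters. The cyclic AMP element, found in 1.55% of all stretches, had no match in the 6 members that could be searched, which leaves out Osm. The stretches of Il6st, Il6ra and Stat3 held none of the 5, and Osm, which lies next to Lif on chromosome 11, is named only. These are letter matches in a short window and not evidence of binding.

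Several arrays stood apart from their labels. Pparg, the targeted gene, was not lower in KO than in WT arrays in any of the 4 comparisons of genotype (differences 0.10 at day 1, 0.08 in day 2 Ly6C+, 0.00 in day 2 Ly6C- and 0.24 at day 4), and the exons that its probe set covers are not named in the sources used here. Lyz2, the gene that LysM Cre occupies, was 9.07 to 9.96 in the KO arrays and 12.6 to 13.2 in most WT arrays, but averaged 8.87 in Ly6C+ and 9.18 in Ly6C- MFs in the 6 arrays labelled WT day 2 replicates 1 to 3. Results that use the day 2 WT groups were therefore recomputed with only the arrays labelled replicates 1 to 3 and only those labelled 4 to 6. The probe sets shared by Ly6c1 and Ly6c2, which encode the sort marker, read 8.61 to 9.98 in Ly6C- MFs, 11.6 to 12.4 in Ly6C+ MFs at days 1 and 2, and 9.21 to 10.9 in the day 4 arrays labelled Ly6C+. Adgre1, which encodes F4/80, was likewise 12.3 in WT day 4 arrays, 12.1 in WT day 2 Ly6C- and 11.5 in WT day 2 Ly6C+ arrays. Changes up to day 4 are thus also set against day 2 Ly6C- MFs. The mean of 7 macrophage markers was 11.2 to 11.9 on every array. In bulk samples such as these, fewer cells expressing a gene and less RNA per cell cannot be told apart.

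The cytokine genes, Stat3 and Socs3 were lower on the last than on the first day of sampling. Il6, Osm, Il6ra and Stat3 were lower in the Ly6C- than in the Ly6C+ subset in KO, rosiglitazone-treated and WT mice. Lif was lower in the Ly6C- subset in KO, did not pass under rosiglitazone, and passed in WT but with neither replicate set alone. The receptor genes had narrow ranges. Il6 had the widest range, 5.97 log2 units between its highest and lowest group mean, followed by 3.91 for Lif, 2.83 for Osm and 2.55 for Socs3. Stat3 spanned 0.87, Il6ra 0.74 and Il6st 0.39.

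Il6 encodes the cytokine that gives the family its name. At day 1 it read 9.04, 8.82, 9.03 and 8.82 in KO Ly6C+ MFs, against 9.70, 9.60, 9.40 and 9.53 in WT Ly6C+ MFs. At day 2 it read 4.11, 3.95, 3.97, 4.00 and 4.66 in KO Ly6C- MFs, against 6.82, 6.84, 7.49, 6.89 and 7.76 in KO Ly6C+ MFs. In WT the lowest, median and highest of the 6 arrays were 3.80, 4.50 and 4.81 in Ly6C- MFs, against 5.37, 6.93 and 8.45 in Ly6C+ MFs. The subsets did not overlap in either genotype, and the WT Ly6C+ arrays were the most scattered of the 10 groups. With rosiglitazone Il6 read 3.66, 4.09 and 4.27 in Ly6C- MFs, against 5.22, 6.03 and 5.50 in Ly6C+ MFs. At day 4 it read 3.70, 3.63, 4.00 and 3.82 in KO, against 3.42, 3.41, 3.42 and 4.08 in WT arrays. In the order of the 10 group means, WT day 1, KO day 1, the day 2 Ly6C+ groups, and the day 2 Ly6C- groups with day 4 formed steps, and 6 of the 9 neighbouring pairs in that order overlapped.

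**Figure D1:**
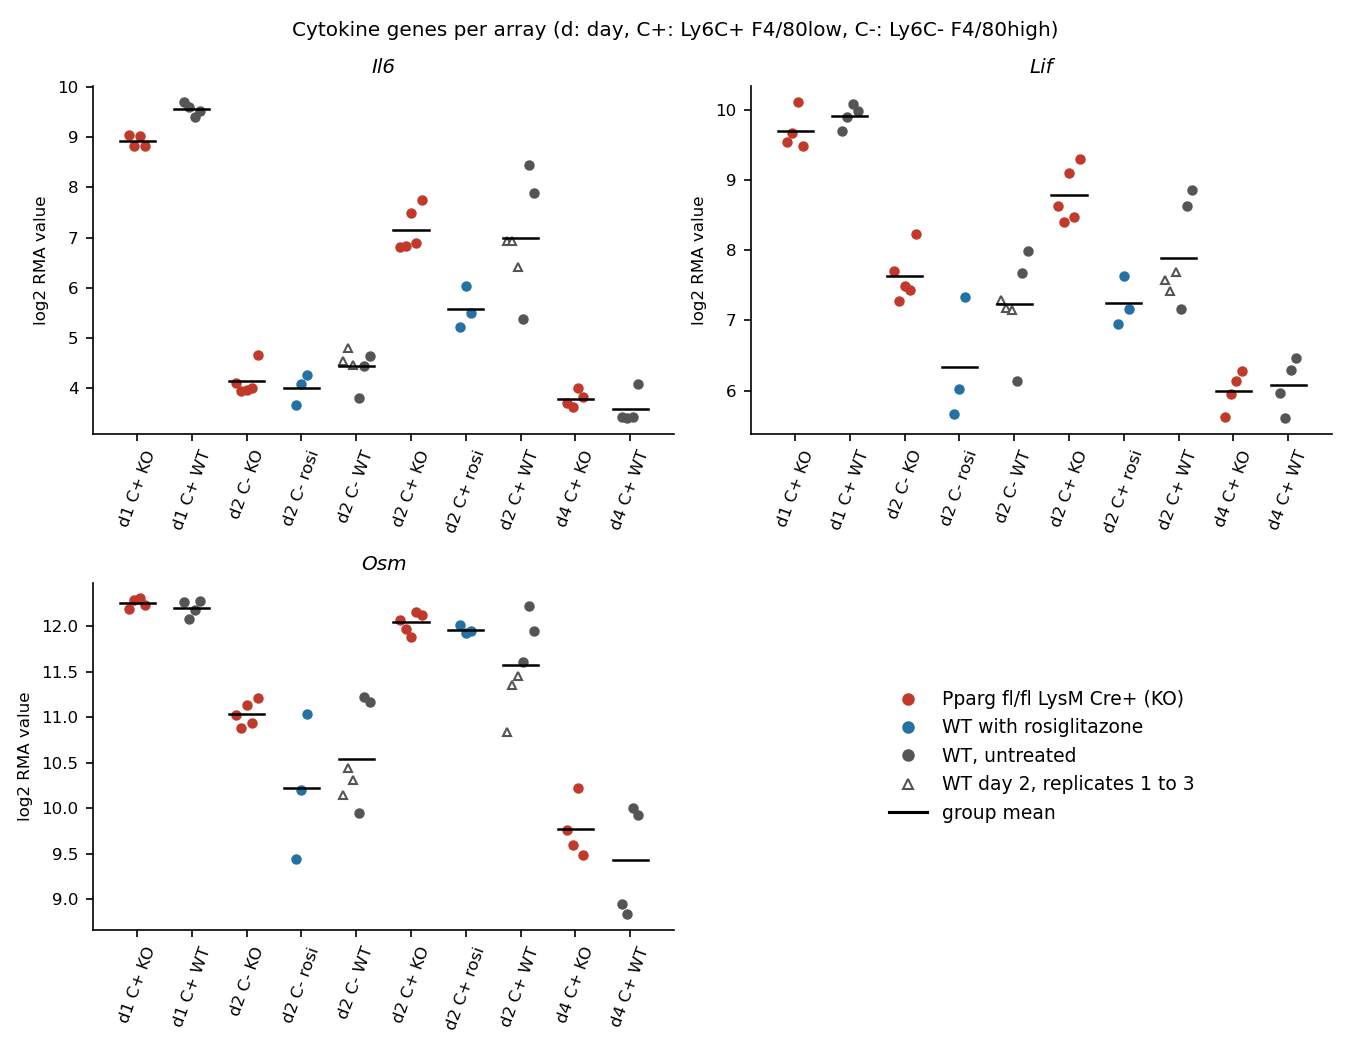
Log2 values of Il6, Lif and Osm on each array (points) in the 10 groups, with the group mean as a line; d is the day, C+ and C- are the Ly6C+ and Ly6C- subsets, and open triangles are the arrays labelled WT day 2 replicates 1 to 3. Il6 lies at 8.82 to 9.70 on day 1 arrays and at 3.41 to 4.08 on day 4 arrays, and Osm keeps values of 8.83 or more on every array.

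Il6 was 8.13-fold lower in Ly6C- than in Ly6C+ MFs of KO mice (difference -3.02 ± 0.29, SE, limma adjusted p = 5.99e-11). The difference was -1.58 ± 0.38 under rosiglitazone (adjusted p = 0.00142) and -2.55 ± 0.27 in untreated WT mice (adjusted p = 2.57e-10), a 5.85-fold lower level. It was -2.16 with only WT replicates 1 to 3 and -2.94 with only 4 to 6. Over days the WT Ly6C+ value was 5.90-fold lower at day 2 than at day 1 (-2.56 ± 0.30, adjusted p = 8.70e-08) and 62.9-fold lower at day 4 than at day 1 (-5.97 ± 0.33, adjusted p = 7.81e-19). In KO the matching differences were -1.77 ± 0.31 (adjusted p = 2.52e-04) and -5.14 ± 0.33 (adjusted p = 8.74e-17). Against day 2 Ly6C- MFs, Il6 at day 4 was lower by -0.86 ± 0.30 in WT (adjusted p = 0.0248), a call lost with only replicates 4 to 6 (-0.71, adjusted p = 0.18), and differed by -0.35 ± 0.31 in KO (adjusted p = 0.541). All values of the day 2 Ly6C- and day 4 groups lay between 3.41 and 4.81, below every value of the other groups.

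Lif encodes leukemia inhibitory factor, which signals through gp130 and the LIF receptor. At day 1 it read 9.54, 9.66, 10.11 and 9.48 in KO, against 9.70, 9.90, 10.07 and 9.97 in WT Ly6C+ MFs. At day 2 it read 7.71, 7.28, 7.50, 7.43 and 8.23 in KO Ly6C- MFs, against 8.63, 8.40, 9.10, 8.47 and 9.30 in KO Ly6C+ MFs. The lowest, median and highest WT values were 6.13, 7.24 and 7.99 in Ly6C- MFs, against 7.17, 7.64 and 8.86 in Ly6C+ MFs. The KO subsets did not overlap and the WT subsets did. Rosiglitazone-treated mice gave 5.66, 6.03 and 7.33 in Ly6C- MFs, against 6.94, 7.64 and 7.16 in Ly6C+ MFs. Day 4 arrays held 5.63, 5.95, 6.14 and 6.28 in KO, against 5.97, 5.61, 6.30 and 6.47 in WT. All day 4 values lay below all day 1 and day 2 Ly6C+ values of the same genotype.

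The Ly6C- value of Lif was lower than the Ly6C+ value by -1.15 ± 0.29 in KO (adjusted p = 0.00169), by -0.91 ± 0.37 under rosiglitazone (adjusted p = 0.075, not passed) and by -0.66 ± 0.26 in WT (adjusted p = 0.0404). The WT call did not hold with only replicates 1 to 3 (-0.36, adjusted p = 0.326) or only 4 to 6 (-0.95, adjusted p = 0.0594). Under rosiglitazone it was -1.40 (adjusted p = 0.00619) without Ly6C- replicate 3, which read 7.33. Between days Lif fell in WT Ly6C+ MFs, 4.05-fold lower at day 2 than at day 1 (-2.02 ± 0.30, adjusted p = 7.09e-06) and 14.2-fold lower at day 4 than at day 1 (-3.82 ± 0.32, adjusted p = 3.18e-13). In KO the difference of day 2 from day 1 was -0.92 ± 0.31 (adjusted p = 0.0528) and that of day 4 from day 1 was -3.70 ± 0.32 (adjusted p = 8.81e-13). Lif was also lower at day 4 than in day 2 Ly6C- MFs, by -1.63 ± 0.31 in KO (adjusted p = 5.31e-05) and -1.15 ± 0.30 in WT (adjusted p = 0.0021).

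Osm encodes oncostatin M, which signals through gp130 and the oncostatin M receptor. At day 1 all 8 arrays lay close together, at 12.19, 12.29, 12.31 and 12.24 in KO, against 12.27, 12.08, 12.18 and 12.28 in WT. At day 2 KO arrays read 11.02, 10.89, 11.13, 10.94 and 11.21 in Ly6C- MFs, against 12.07, 11.98, 11.88, 12.16 and 12.12 in Ly6C+ MFs. WT arrays had a lowest, median and highest value of 9.95, 10.38 and 11.22 in Ly6C- MFs, against 10.84, 11.53 and 12.22 in Ly6C+ MFs. All 5 KO Ly6C+ values lay below the 4 KO values of day 1, and the WT Ly6C+ values ran lower in replicates 1 to 3 (mean 11.21) than in 4 to 6 (mean 11.93). Under rosiglitazone the values were 9.44, 10.20 and 11.03 in Ly6C- MFs, against 12.01, 11.92 and 11.95 in Ly6C+ MFs. At day 4 they were 9.76, 9.60, 10.22 and 9.49 in KO, against 8.95, 8.83, 9.9995 and 9.92 in WT.

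The Ly6C- level of Osm was 2.01-fold below the Ly6C+ level in KO (-1.01 ± 0.24, adjusted p = 8.01e-04), 3.33-fold below it with rosiglitazone (-1.74 ± 0.30, adjusted p = 2.10e-05) and 2.04-fold below it in WT (-1.03 ± 0.22, adjusted p = 1.52e-04). The WT difference was -0.91 with only replicates 1 to 3 and -1.15 with only 4 to 6. At day 2 against day 1, Osm differed by -0.21 ± 0.25 in KO (adjusted p = 0.636) and by -0.63 ± 0.24 in WT Ly6C+ MFs (adjusted p = 0.091). The genotypes were not shown to differ in this step (interaction 0.42 ± 0.35, adjusted p = 0.733). The WT value depended on the replicates, at -0.99 (adjusted p = 0.00248) with only 1 to 3 and -0.28 (adjusted p = 0.599) with only 4 to 6. By day 4 Osm was 5.63-fold lower than at day 1 in KO (-2.49 ± 0.26, adjusted p = 1.40e-10) and 6.86-fold lower in WT (-2.78 ± 0.26, adjusted p = 7.84e-12). It also fell below the day 2 Ly6C- level, by -1.27 ± 0.25 in KO (adjusted p = 1.03e-04) and -1.11 ± 0.24 in WT (adjusted p = 2.94e-04).

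Il6ra encodes the chain that binds IL-6 itself. At day 2 it averaged 9.998 ± 0.21 in Ly6C- and 10.45 ± 0.18 in Ly6C+ MFs of KO mice (SD, n = 5 each), 10.03 ± 0.10 in Ly6C- and 10.72 ± 0.11 in Ly6C+ MFs with rosiglitazone (n = 3 each), and 10.04 ± 0.22 in Ly6C- and 10.61 ± 0.22 in Ly6C+ MFs of WT mice (n = 6 each). At the other times its group means lay between 10.53 and 10.73. Il6ra was therefore lowest in the 3 Ly6C- groups, whose means differed by less than their SDs. The difference between subsets was -0.45 ± 0.10 in KO (adjusted p = 4.83e-04), -0.69 ± 0.13 with rosiglitazone (adjusted p = 7.04e-05) and -0.57 ± 0.09 in WT (adjusted p = 2.75e-06). Il6ra was not lower at day 4 than at day 1, with differences of 0.21 ± 0.11 in KO (adjusted p = 0.101) and 0.05 ± 0.11 in WT (adjusted p = 0.711). It was higher at day 4 than in day 2 Ly6C- MFs, by 0.74 ± 0.11 in KO (adjusted p = 6.65e-07) and 0.66 ± 0.10 in WT (adjusted p = 1.66e-06). In this gene alone of the 7, the day 4 level lay above the day 2 Ly6C- level with both calls passed.

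Il6st encodes gp130, the chain all these cytokines share. Its 10 group means lay between 9.87 and 10.26. At day 1 it averaged 9.87 ± 0.19 in KO and 9.87 ± 0.11 in WT (SD, n = 4 each). At day 4 it averaged 10.13 ± 0.12 in KO and 10.10 ± 0.04 in WT. The rise at day 4 over day 1 was 0.26 ± 0.08 (SE) in KO (adjusted p = 0.00482) and 0.23 ± 0.08 in WT (adjusted p = 0.0175). Neither call held without the lowest day 1 array of its genotype, KO replicate 1 (0.18, adjusted p = 0.0536) or WT replicate 4 (0.18, adjusted p = 0.0905). Against day 2 Ly6C- MFs, Il6st at day 4 differed by -0.03 in KO and -0.16 in WT, with neither passed. Il6st was higher in Ly6C- than in Ly6C+ MFs in KO (0.20 ± 0.07, adjusted p = 0.0271), a call lost in 4 of the omissions of a single array (0.16 to 0.20, adjusted p up to 0.0875). It read -0.13 ± 0.09 with rosiglitazone (adjusted p = 0.374) and 0.15 ± 0.07 in WT (adjusted p = 0.0543).

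Stat3 encodes the transcription factor that gp130 activates, and the amount of its transcript says nothing of its phosphorylation. At day 2 it averaged 10.80 ± 0.06 in Ly6C- and 11.20 ± 0.05 in Ly6C+ MFs of KO mice, 10.67 ± 0.22 in Ly6C- and 11.11 ± 0.06 in Ly6C+ MFs with rosiglitazone, and 10.73 ± 0.08 in Ly6C- and 11.23 ± 0.06 in Ly6C+ MFs of WT mice. It was 10.52 ± 0.01 in KO and 10.56 ± 0.10 in WT at day 4, and 11.27 ± 0.07 in KO and 11.39 ± 0.04 in WT at day 1. The scatter within groups was small, so modest differences were well separated. Between subsets they were -0.40 ± 0.06 in KO (adjusted p = 9.36e-07), -0.43 ± 0.08 with rosiglitazone (adjusted p = 2.81e-05) and -0.50 ± 0.05 in WT (adjusted p = 8.95e-10). Between day 4 and day 1 they were -0.74 ± 0.07 in KO (adjusted p = 2.10e-12) and -0.83 ± 0.07 in WT (adjusted p = 1.05e-13). Against day 2 Ly6C- MFs the day 4 differences were smaller, -0.28 in KO and -0.17 in WT (adjusted p = 0.0343). The WT call was lost with only replicates 1 to 3 (-0.16, adjusted p = 0.0808) and with only 4 to 6 (-0.17, adjusted p = 0.0976).

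Socs3 encodes the inhibitor that STAT3 induces. At day 1 it read 11.04, 10.64, 10.30 and 10.10 in KO, against 10.81, 10.98, 11.20 and 11.11 in WT. At day 4 it read 9.05, 9.85, 8.71 and 8.67 in KO, against 8.67, 8.12, 8.75 and 8.38 in WT. No day 4 array reached the day 1 values of its genotype. The difference of day 4 from day 1 was -1.45 ± 0.26 in KO (adjusted p = 9.02e-06) and -2.55 ± 0.26 in WT (adjusted p = 4.63e-11). On the second, dimmer probe set of Socs3 the group means differed by -0.99 in KO and -1.86 in WT, the same direction. Against day 2 Ly6C- MFs, Socs3 at day 4 was lower by -0.80 in KO (adjusted p = 0.012) and -1.30 in WT. The second probe set gave -0.22 and -0.62. The KO call was lost with the mean of the probe sets (-0.51, adjusted p = 0.0645). At day 2 the arrays labelled WT replicates 1 to 3 averaged 10.18 in Ly6C- and 10.53 in Ly6C+ MFs, against 9.39 in Ly6C- and 9.77 in Ly6C+ MFs in replicates 4 to 6, with no overlap of the sets within a subset. The second probe set showed no such gap in Ly6C+ MFs, at 7.51 in both sets, and a gap in Ly6C- MFs, at 7.39 in replicates 1 to 3 and 6.97 in replicates 4 to 6. On the main probe set the gap between subsets was -0.35 within the first set and -0.38 within the second. The subset difference was -0.42 ± 0.23 in KO (adjusted p = 0.138), -0.59 ± 0.30 with rosiglitazone (adjusted p = 0.165) and -0.37 ± 0.21 in WT (adjusted p = 0.147), so none passed. With the replicate number as a block the rosiglitazone difference passed (-0.59, adjusted p = 0.00432). Those same-numbered arrays deviated together.

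**Figure D2:**
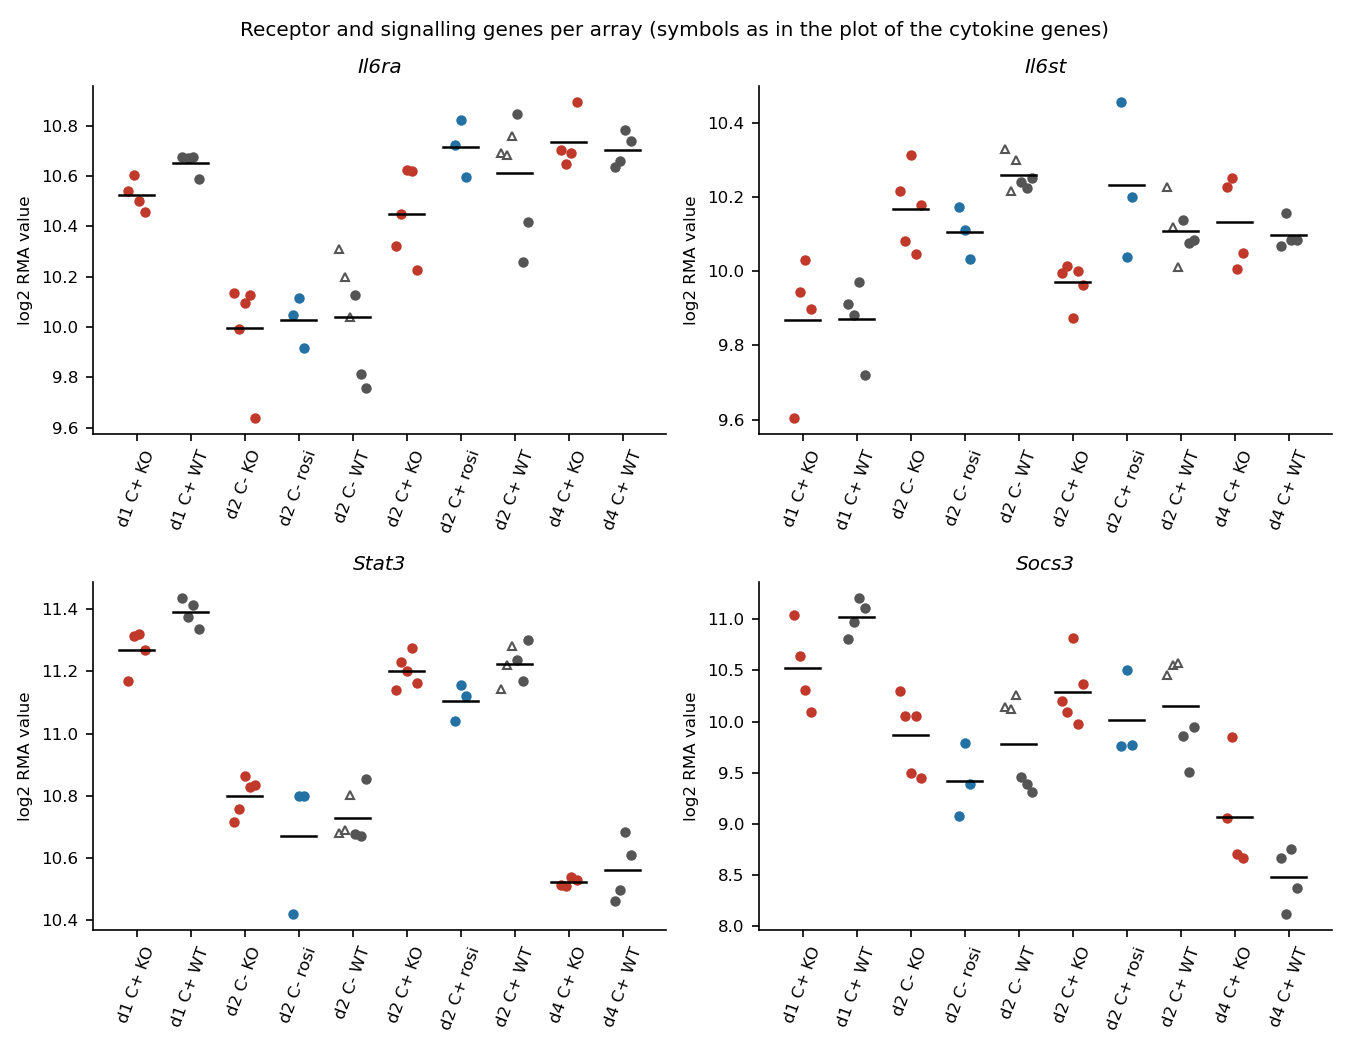
Log2 values of Il6ra, Il6st, Stat3 and Socs3 on each array, with groups, symbols and mean lines as in the plot of the cytokine genes. The vertical axes differ between panels, from a span of 0.39 between the group means of Il6st to 2.55 for Socs3; the open triangles of Socs3 lie above the filled WT day 2 points of the same subset.

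Counted over the 7 genes, 5 were lower in Ly6C- than in Ly6C+ MFs of KO mice, where 18.6% of all 19938 genes were lower, and 1 was higher, where 19.8% were. With rosiglitazone 4 were lower, beside 8.68% of all genes, and in WT 5 were lower, beside 23%. The median difference of the members was -0.45, -0.69 and -0.57 in these comparisons, beside -0.09, -0.04 and -0.07 over all genes. In Ly6C+ MFs at day 2 against day 1, 1 member (Il6) was lower in KO, beside 2.58% of all genes. In WT 3 were lower (Il6, Lif and Socs3, the last by -0.88 ± 0.24, adjusted p = 0.0123), beside 3.17%, and 1 was higher (Il6st, 0.24 ± 0.07, adjusted p = 0.0289), beside 6.51%. Socs3 did not pass with only WT replicates 1 to 3 (-0.50, adjusted p = 0.17), and Il6st passed with neither set (0.25 and 0.23). At day 4 against day 2 in KO, 5 were lower, beside 22.5%, and 1 was higher, beside 22.3% (Il6ra, 0.29 ± 0.11, adjusted p = 0.0276). In WT 5 were lower, beside 26%. At day 4 against day 1 in KO, 5 were lower, beside 37.1%, and 1 was higher, beside 27.2%. In WT 5 were lower, beside 22.6%, and 1 was higher, beside 26%. The members' median in that last step was -1.45 in KO and -2.55 in WT, beside -0.13 and -0.08 over all genes. Against day 2 Ly6C- MFs, day 4 arrays of KO had 4 members lower, beside 11.8%, and 1 higher, beside 13.1%. Those of WT had 5 lower, beside 15.2%, and 1 higher, beside 14.1%. These comparisons share groups with each other and are not independent.

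**Figure D3:**
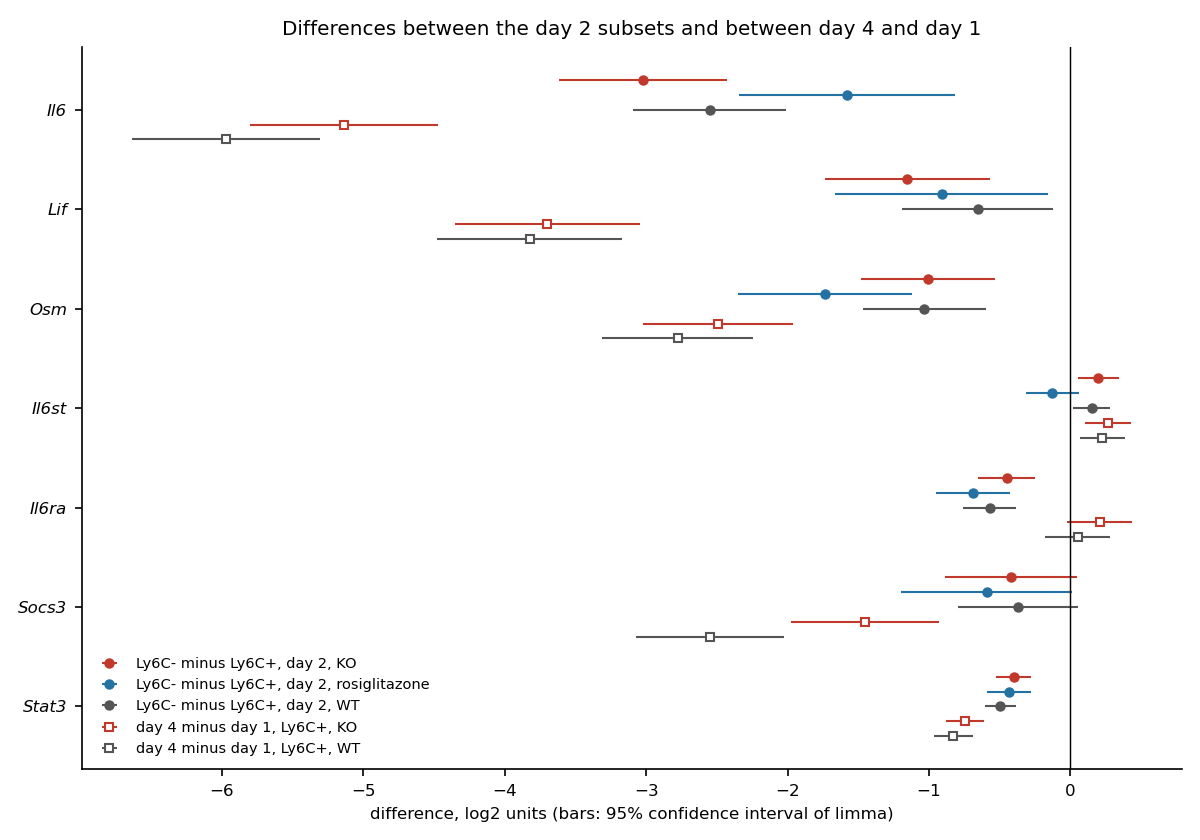
Differences of the 7 genes in log2 units (points) with limma's 95% confidence intervals (bars), for day 2 Ly6C- minus Ly6C+ MFs (filled circles) and for day 4 minus day 1 Ly6C+ MFs (open squares). Il6 lies farthest left in each comparison except between the rosiglitazone subsets, where Osm does (-1.74), it reaches -5.97 for WT day 4 against day 1, and Il6st lies between -0.13 and 0.26.

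Markers of other cells moved along with these changes. The mean of 13 neutrophil markers was 6.66 to 6.91 in Ly6C- and 7.11 to 7.49 in Ly6C+ MFs at day 2, 7.63 to 7.79 at day 1 and 6.41 to 6.61 at day 4. At day 4 against day 1, 11 of the 13 were lower and 1 was higher in KO (37.1% and 27.2% of all genes), and 9 were lower and 1 higher in WT (22.6% and 26%). Between day 2 subsets, 7 were lower and 2 higher in Ly6C- than in Ly6C+ MFs in KO and likewise in WT. Of all genes 18.6% were lower and 19.8% higher in KO, and 23% were lower in WT, where 45.2% passed in either direction. With only WT replicates 1 to 3, 6 neutrophil markers were lower and 1 higher, where 34.8% of all genes passed in either direction. With only 4 to 6, 5 were lower and 1 higher, where 30% of all genes passed. The mean of 3 monocyte markers was 7.44 to 8.38 in Ly6C- and 11.4 to 11.8 in Ly6C+ MFs at day 2, 11.5 to 11.8 at day 1 and 8.22 to 8.73 at day 4. The mean of 7 muscle fibre markers was 6.74 to 6.98 at day 1, 6.59 to 6.86 at day 2 and 7.15 to 7.34 at day 4. The list means of fibroblasts (6.34 to 6.51 at day 1 and 6.74 to 7.20 at day 4), myoblasts (6.24 to 6.51 and 6.61 to 6.84) and T and NK cells (5.51 to 5.68 and 5.80 to 5.9996) also lay higher at day 4 without overlap. That of endothelium lay lower (6.76 to 7.01 and 6.51 to 6.65). Singly, 3 of 8 fibroblast and 2 of 6 myoblast markers were higher in KO, and 1 fibroblast marker was lower. Of 9 T and NK cell markers, 2 were higher and 2 lower. In WT 3, 3 and 4 of these were higher. Endothelial markers were lower in 6 of 8 cases in KO and 4 of 8 in WT. Of all genes 27.2% were higher and 37.1% lower in KO, and 26% and 22.6% in WT. Between WT subsets, 5 of 8 fibroblast and 6 of 8 endothelial markers were lower in Ly6C- MFs, beside 23% of all genes. There 1 endothelial marker was higher, where 45.2% of all genes passed in either direction. With only WT replicates 1 to 3, 7 fibroblast and 6 endothelial markers were lower, where 34.8% of all genes passed in either direction. With only 4 to 6, 0 and 2 were lower, where 30% of all genes passed. The part of such cells in the differences of Il6, Lif, Osm and Socs3 was not tested.

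KO and WT were compared within each day and subset to ask how these genes differ with the KO genotype. A lower Pparg level in KO was not seen on these arrays. At day 1 none of the 7 passed, where 0.0351% of all genes did and 621 had an unadjusted p below 0.05 by limma. Yet the 4 KO values of Il6 all lay below the 4 WT values (-0.63 ± 0.33, adjusted p = 1), and so did those of Stat3 (-0.12 ± 0.07). Groups failed to overlap in 2.96% of all genes in this comparison. In day 2 Ly6C+ MFs again 0 passed, beside 1.88% of all genes (3104 with an unadjusted p below 0.05). The largest difference was that of Lif, 0.89 ± 0.28 higher in KO (adjusted p = 0.0832), followed by Osm at 0.47 ± 0.23 (adjusted p = 0.297). In day 2 Ly6C- MFs 0 passed, beside 0.201% (1977 unadjusted), with 0.50 ± 0.23 for Osm (adjusted p = 0.456) and 0.39 ± 0.28 for Lif (adjusted p = 0.664). At day 4 0 passed, beside 0.0652% (592 unadjusted), with 0.59 ± 0.26 for Socs3 (adjusted p = 1).

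The choice of WT arrays decided these calls. Against only WT replicates 1 to 3, which share the low Lyz2 level of the KO arrays, KO Ly6C+ MFs at day 2 had higher Lif (1.22, adjusted p = 7.81e-04) and Osm (0.83, adjusted p = 0.0093) and lower Il6ra (-0.26, adjusted p = 0.05 after rounding), beside 15.1% of all genes that passed. KO Ly6C- MFs had higher Osm (0.74, adjusted p = 0.0227), beside 14.4%. Against only WT replicates 4 to 6, the Ly6C+ differences were 0.56 for Lif (adjusted p = 0.492) and 0.12 for Osm (adjusted p = 0.898), and the Ly6C- difference of Osm was 0.26 (adjusted p = 1). Socs3 read -0.24 against the first set and 0.52 against the second in Ly6C+ MFs, with neither passed, but 0.03 against either set on its second probe set. Lif also passed without WT Ly6C+ replicate 5 (1.04, adjusted p = 0.0468) or replicate 6 (1.08, adjusted p = 0.0182). Whether the day 2 to day 1 change differed between genotypes was tested as an interaction, and 0 members passed, beside 0.01% of all genes (1782 unadjusted). The interaction was 1.10 ± 0.43 for Lif (adjusted p = 0.457) and 0.79 ± 0.43 for Il6 (adjusted p = 0.603). With only WT replicates 1 to 3 these were 1.43 (adjusted p = 0.0118) and 1.03 (adjusted p = 0.0205), beside 5.57% of all genes, and with only 4 to 6 they were 0.77 (adjusted p = 0.623) and 0.55 (adjusted p = 0.764). Between day 4 and day 2 the interaction of Lif was -0.98 ± 0.43 (adjusted p = 0.519), -1.30 (adjusted p = 0.0224) with only WT replicates 1 to 3, beside 4.8% of all genes, and -0.65 (adjusted p = 0.661) with only 4 to 6, and 0 members passed, beside 0.0301% of all genes (1686 unadjusted). The genotypes did not differ detectably in the gap between subsets, with 0 members passed, beside 0.01% of all genes (559 unadjusted), and intervals of -1.28 to 0.33 for Il6 and -0.62 to 0.67 for Osm.

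Treated and untreated WT mice were compared at day 2 to ask how these genes differ with rosiglitazone, the PPARg agonist. In Ly6C+ MFs 1 member passed, Il6, beside 5.6% of all genes that were lower. It was 2.66-fold lower in treated than in untreated WT MFs (-1.41 ± 0.33, adjusted p = 0.00429), although untreated replicate 4, at 5.37, lay among the treated values of 5.22 to 6.03. Il6 was lower against only replicates 1 to 3 (-1.17, adjusted p = 8.68e-05) and against only 4 to 6 (-1.65, adjusted p = 0.0296). The call was lost without treated replicate 1 (-1.23, adjusted p = 0.0539) and in a fit of these 9 arrays alone (adjusted p = 0.221), where 0 of all genes passed. The other cytokine genes read -0.64 ± 0.32 for Lif (adjusted p = 0.205) and 0.39 ± 0.26 for Osm (adjusted p = 0.366). Osm passed against only replicates 1 to 3 (0.75, adjusted p = 0.0229), beside 27.3% of all genes, but read 0.04 against only 4 to 6, the set whose Lyz2 level matched that of the treated arrays. In Ly6C- MFs 0 members passed, beside 0.0351% (1920 unadjusted). The largest differences there were -0.90 ± 0.32 for Lif (adjusted p = 0.337) and -0.44 ± 0.33 for Il6 (adjusted p = 0.72). Lif passed against only replicates 1 to 3 (-0.87, adjusted p = 0.035), as did Socs3 (-0.75, adjusted p = 0.0485), beside 12.8% of all genes, but not against only 4 to 6 (-0.93 and 0.03). The effect of rosiglitazone on Il6 was not shown to differ between subsets, with an interaction of 0.97 ± 0.46 (adjusted p = 0.621), and 0 members passed that test, beside 0.015% of all genes (1547 unadjusted).

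Other genes of the pathway were read in lists by role. Of 7 further ligand genes measured, 4 were lower in Ly6C- than in Ly6C+ MFs of KO mice and 3 in WT, where 18.6% and 23% of all genes were lower. At day 4 against day 1, 6 were lower and 1 higher in KO (37.1% and 27.2% of all genes), and 4 lower and 1 higher in WT (22.6% and 26%). Against day 2 Ly6C- MFs, 1 was lower and 2 were higher at day 4 in KO (11.8% and 13.1% of all genes) and likewise in WT (15.2% and 14.1%). Clcf1, which encodes another gp130 ligand, differed by -1.13 in KO and -0.86 in WT between subsets, and by -2.29 in KO and -2.77 in WT between day 4 and day 1, all passed. Ebi3, a subunit of interleukin-27, was the one that rose, by 1.25 in KO and 1.18 in WT at day 4 against day 1. Of 5 further receptor genes, 3 were lower in Ly6C- MFs of KO mice and 5 in WT, beside the same 18.6% and 23% of all genes. With only WT replicates 1 to 3, 3 were lower, where 34.8% of all genes passed in either direction. With only 4 to 6, 4 were lower, where 30% of all genes passed. Lifr, the LIF receptor, differed by -0.84 in KO and -1.06 in WT, and Il31ra, the interleukin-31 receptor, by -0.63 in KO and -0.57 in WT.

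Osmr, the oncostatin M receptor, differed by 0.06 between KO subsets and by -0.44 between WT subsets, the second passed. In day 2 Ly6C+ MFs it was lower in KO than in WT (-0.46) and lower with rosiglitazone than without (-0.46), comparisons that share the same 6 WT arrays. All 3 of these Osmr calls were lost with only WT replicates 4 to 6, with values of -0.19, -0.27 and -0.27 (adjusted p = 0.127, 0.0865 and 0.133). The mean of 8 fibroblast markers was 6.22 to 6.45 in KO, 6.26 to 6.46 in rosiglitazone-treated and 6.25 to 7.13 in untreated WT Ly6C+ MFs at day 2, and that of 8 endothelial markers was 6.68 to 6.82 in KO, 6.65 to 6.78 in rosiglitazone-treated and 6.61 to 7.30 in WT. Their part in the Osmr differences was not tested.

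Among 9 genes for kinases and inhibitors of the chain, 4 were lower and 2 higher at day 4 than at day 1 in KO, and 5 lower and 2 higher in WT. These shares lie near those of all genes in KO, of which 37.1% were lower and 27.2% higher, and in WT the shares of all genes were 22.6% and 26%. In WT, Cish, an inhibitor that STAT factors induce, fell by 1.81, Jak2, a Janus kinase, fell by 1.76, and Ptpn2, a phosphatase that acts on the chain, fell by 1.26. Pias3, an inhibitor of STAT3, rose by 0.78 and the kinase gene Tyk2 by 0.67. Against day 2 Ly6C- MFs, 2 of these 9 genes were lower and 3 higher at day 4 in KO (11.8% and 13.1% of all genes). In WT 3 were lower and 3 higher (15.2% and 14.1%). For shedding of the IL-6 receptor, Rhbdf2, which controls the protease ADAM17, was lower at day 4 than at day 1 in WT (-0.99), while Adam17 (0.03) and Adam10 (0.18) did not pass. Of 21 genes known as STAT3 targets, 18 were lower at day 4 than at day 1 in KO and 20 in WT, with list medians of -1.81 and -2.05, beside medians of -0.13 and -0.08 over all genes, of which 37.1% and 22.6% were lower. Against day 2 Ly6C- MFs, 15 were lower and 1 higher at day 4 in KO, beside 11.8% and 13.1% of all genes. In WT 14 were lower and 1 higher, beside 15.2% and 14.1%. The list medians in this comparison were -0.98 in KO and -0.97 in WT, beside 0.007 and -0.01 over all genes. Between subsets 13 were lower and 2 higher in KO, and 13 were lower in WT, with medians of -0.48 and -0.47, beside -0.09 and -0.07 over all genes, of which 18.6% and 23% were lower. Lrg1 (-4.61), Lcn2 (-4.61), Hp (-3.97) and Vegfa (-3.69) fell most from day 1 to day 4 in WT, and Lcn2 is also among the 13 neutrophil markers. Of 9 regulators of Il6 transcription and mRNA, 8 were lower at day 4 than at day 1 in KO and 9 in WT, against the same 37.1% and 22.6% of all genes, among them Nfkbiz (-2.48 in WT) and Tnfaip3 (-2.30 in WT). Against day 2 Ly6C- MFs, 6 regulators were lower at day 4 in KO, beside 11.8% of all genes. In WT 5 were lower and 1 higher, beside 15.2% and 14.1%.

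Some of these genes differed by genotype or drug. Saa3, an acute phase gene, was higher in KO than in WT in day 2 Ly6C- MFs (1.34), in day 2 Ly6C+ MFs (1.05) and at day 1 (1.22), with day 2 differences of 1.48 and 1.32 against only WT replicates 1 to 3 and 1.21 and 0.78 against only 4 to 6, all passed. Nfkbiz, a coactivator at the Il6 promoter, was higher in KO than in WT day 2 Ly6C+ MFs by 0.71, and Arid5a, which stabilizes Il6 mRNA, by 0.43. Neither passed against only replicates 4 to 6 (0.31, adjusted p = 0.436, and 0.37, adjusted p = 0.0614). With rosiglitazone Lcn2 (1.34), Lrg1 (1.31) and Hp (0.93) were higher and Vegfa (-1.49) and Cish (-1.15) lower in Ly6C+ MFs. In a fit of only the arrays compared, 0 of all genes passed for this contrast. Against only replicates 4 to 6, Lrg1 (1.19, adjusted p = 0.022) and Hp (0.69, adjusted p = 0.0496) passed, and Lcn2 (0.63, adjusted p = 0.064), Vegfa (-1.23, adjusted p = 0.207) and Cish (-0.76, adjusted p = 0.0573) did not.

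**Figure D4:**
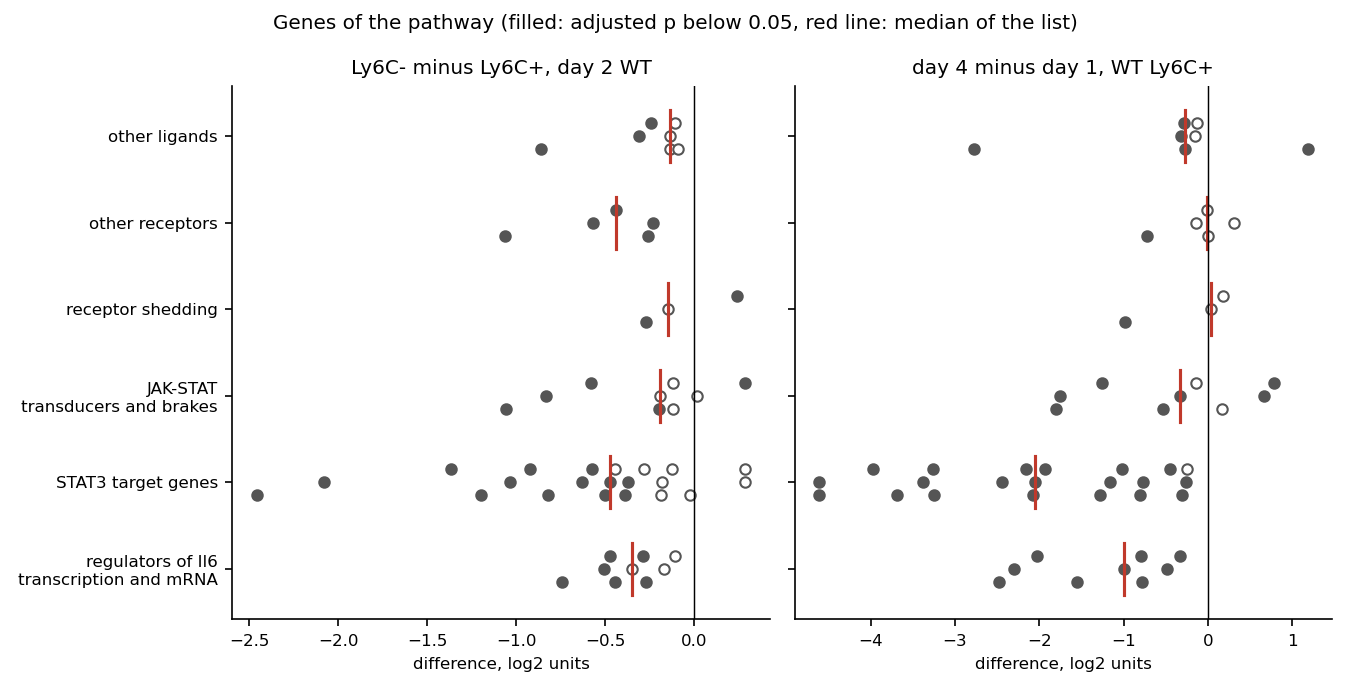
Differences in log2 units of single genes (points) in 6 pathway lists, for WT day 2 Ly6C- minus Ly6C+ MFs (left) and WT day 4 minus day 1 Ly6C+ MFs (right), where filled points passed at an adjusted p below 0.05 and red lines are list medians. On the right the STAT3 target genes reach -4.61 (Lrg1 and Lcn2) around a median of -2.05, and Ebi3 is the ligand gene to the right of 0.

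The 3 cytokine genes tracked each other over the arrays, which share days, subsets and replicate sets. Over 10 group means Pearson's r was 0.95 between Il6 and Lif, 0.87 between Il6 and Osm and 0.89 between Lif and Osm. Within groups, over 44 arrays with group means removed, it was 0.74, 0.40 and 0.70. WT replicate 4 shows this, with the lowest Il6 and Lif of the 6 WT arrays in each day 2 subset. Socs3 followed the cytokines between groups (r = 0.88 with Il6) but not within them (r = -0.04). By the highest r over the 10 group means, Ptprn (0.994), Tbata (0.993) and Serpinb2 (0.993) were most like Il6, and of these Serpinb2 kept the highest r over the 44 arrays, 0.975. Klf15, Il1a and Sphk1 were most like Lif (0.991, 0.989 and 0.984), and Nr4a1, Lilrb4a and Rbpj most like Osm (0.992, 0.988 and 0.987). Il1a kept an r of 0.963 over the arrays and Nr4a1 one of 0.947, against 0.675 for Klf15. Cd209a was most like Il6ra (0.984), Dnajc2 most like Il6st (0.981), Snx18 most like Socs3 (0.988) and Med13l most like Stat3 (0.993).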

How the data were processed

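The authors deposited log2 values of 35556 probe sets for 44 arrays, made with RMA per the labels. RMA corrects background, equalizes array distributions and summarizes probes, so that array medians lay at 6.64 to 6.77. Neither a software version nor the probe set definition is given in the sources used here. No detection call was used, and low values such as those of Il6 at day 4 may be compressed. Depth has no meaning here, and the number of arrays limits the precision. The platform annotation gave 1 symbol to 21789 probe sets. The one with the highest mean stood for each of 19938 genes. Members and lists were chosen with earlier results of these data known. The 7 members are named throughout. Up to 4 genes per list and comparison that passed with the largest differences, and up to 3 genes most like a member, are named by rule, and other genes were chosen after their values were seen. Some listed genes are not reported here.

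One mean per group was fitted over all 44 arrays with limma 3.58.1 in R 4.3.3 (34 residual and 6.46 prior degrees of freedom), for 17 comparisons and 4 interactions. Differences are on the log2 scale, and passing means a two-sided p below 0.05 after Benjamini-Hochberg adjustment over 19938 genes. "Rose", "fell", "higher" and "lower" follow that test in the comparisons of groups. The fit was tested on simulated data. Alternatives were centring of arrays, the mean of probe sets, a filter leaving out the lowest 25% of genes, eBayes with trend, the arrays compared alone, the replicate number as a block, and leaving out arrays. Same-numbered arrays deviated together in every pair (r 0.134 to 0.443) only between the rosiglitazone subsets, by this correlation and not by the labels. Promoters are from RefSeq, with 6 of 7 members matched.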

Additional observations from a re-analysis of the deposited data

Results flagged for a closer look

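A value far from the others of its group was looked for in 56 groups of 4 to 6 arrays (7 genes in 8 groups), and 6 were found. Chance marks about 1 in 20 groups. Il6 read 3.80 in WT day 2 Ly6C- replicate 4, below the other 5 arrays at 4.44 to 4.81, and 4.66 in KO day 2 Ly6C- replicate 5, above the other 4 at 3.95 to 4.11. Il6 also read 4.08 in WT day 4 replicate 4, above the other 3 at 3.41 to 3.42. Il6ra read 9.64 in KO day 2 Ly6C- replicate 5, the same array, below the others at 9.99 to 10.13, and 10.59 in WT day 1 replicate 4, below the others at 10.67 to 10.68. Il6st read 10.16 in WT day 4 replicate 2, above the others at 10.07 to 10.08. None of 28 interactions of the members passed by limma.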

How the results depend on the processing

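For 147 results of single members, 2667 values under alternatives were computed. None changed direction while called, 48 lost their call, 35 gained one, and 80 changed sign with no call on either side. The count of members that passed in KO day 2 against day 1 was 2 in place of 1 with the lowest 25% of genes left out, with only the arrays compared and with the replicate number as a block. In these fits 1555, 2184 and 3542 of all genes passed, in place of 1723. For rosiglitazone in Ly6C+ MFs it was 0 with only the arrays compared, 2 without WT day 2 replicates 4 to 6 and 3 with the block, in place of 1. There 0, 5435 and 4480 of all genes passed, in place of 2218. Without replicates 4 to 6, the counts in place of 0 were 3 and 1 for KO against WT in Ly6C+ and Ly6C- MFs, 2 for rosiglitazone in Ly6C- MFs, and 2 and 1 for the interactions of genotype with day 2 against day 1 and with day 4 against day 2. Over all genes 15.1%, 14.4%, 12.8%, 5.57% and 4.8% passed in the same fits, in place of 1.88%, 0.201%, 0.0351%, 0.01% and 0.0301%. These fits have fewer arrays, and the cause was not tested.

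Except between the rosiglitazone subsets, not all same-numbered arrays deviated together. With the replicate block, 1 member passed for KO against WT in Ly6C+ MFs (Lif, 1.08, adjusted p = 0.0109) and 1 for rosiglitazone in Ly6C- MFs (Socs3, -0.75, adjusted p = 0.034), each in place of 0. Of all genes 47 and 602 passed with the block in these comparisons, in place of 374 and 7. The block keeps only replicate numbers found in both groups, so it also leaves out arrays. For Lif in KO against WT it left out WT Ly6C+ replicate 6, without which the main fit also gave 1.08. Lif at day 2 against day 1 in KO lost day 2 replicate 5, without which the main fit also gave -1.05. In WT, day 2 against day 1 lost day 2 replicates 5 and 6. Treated arrays are numbered 1 to 3 only, so that the block sets them against WT replicates 1 to 3, with the differences of that setting. In rosiglitazone Ly6C+ MFs it added Osm (0.75, adjusted p = 0.00296) and Socs3 (-0.52, adjusted p = 0.0235, but 0.10 on the second probe set), between the rosiglitazone subsets Socs3 (-0.59, adjusted p = 0.00432), in WT subsets Socs3 (-0.37, adjusted p = 0.00403), and at day 2 against day 1 Lif in KO (-1.05, adjusted p = 3.65e-04) and Osm in WT (-0.89, adjusted p = 0.00557). It lost Il6st in WT day 2 and KO day 4 against day 1 (0.25 and 0.26) and Stat3 in WT day 4 against day 2 Ly6C- (-0.15), and changed no other call of a member.

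Leaving out 1 array at a time, the counts ran from 1 to 2 for day 2 against day 1 in KO and 3 to 5 in WT, from 5 to 7 for day 4 against day 2 in KO and 5 to 5 in WT, from 5 to 6 for day 4 against day 1 in both, from 4 to 5 for day 4 against day 2 Ly6C- in KO and 4 to 6 in WT, and from 5 to 6, 4 to 5 and 4 to 6 for the subsets in KO, with rosiglitazone and in WT. They ran from 0 to 1 for KO against WT in Ly6C+ MFs and for rosiglitazone in either subset, and stayed at 0 in the other genotype comparisons and all 4 interactions. Single arrays ended 29 calls. Lif between WT subsets was lost without Ly6C- replicate 1, 2, 3 or 4 or Ly6C+ replicate 5 or 6 (-0.67 to -0.43). Il6st between KO subsets was lost without Ly6C- replicate 1 or 3 or Ly6C+ replicate 3 or 5 (0.16 to 0.20), and in WT day 2 against day 1 without day 1 replicate 2 or 4 or day 2 replicate 1 (0.19 to 0.24). Il6ra in KO day 4 against day 2 (main value 0.29) was lost without day 2 replicate 1 or 5 or day 4 replicate 4 (0.23 to 0.25). At day 4 against day 2 Ly6C-, calls were lost for Il6 in WT without Ly6C- replicate 2 or day 4 replicate 1, 2 or 3 (-0.81 to -0.79), for Stat3 in WT without Ly6C- replicate 3 or 6 or day 4 replicate 1 or 2 (-0.15 to -0.13), and for Socs3 in KO without day 4 replicate 3 or 4 (-0.68 and -0.67). Centring each array on its median ended the calls of Lif between WT subsets (-0.59, adjusted p = 0.08) and Stat3 in WT day 4 against day 2 Ly6C- (-0.17, adjusted p = 0.0647), and gave calls to Il6st between WT subsets (0.22, adjusted p = 0.00588) and in KO day 4 against day 2 (0.22, adjusted p = 0.0153) and to Il6ra in KO day 4 against day 1 (0.29, adjusted p = 0.0331). The median of all genes was shifted by -0.13 in that last comparison.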
